A study of Mus musculus with 4 samples.

Results

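Gata6, Foxa1 and Sox17 encode transcription factors that set up endoderm, the germ layer and extra-embryonic tissue that form the gut lining and the yolk sac. They are 3 genes, taken by symbol from the 1593 genes of a deposited table that compares mouse embryonic stem cells with and without CID755673, an inhibitor of protein kinase D. The cells were 46C, a single mouse embryonic stem cell line in which the Sox1 locus carries a green fluorescent reporter. The PD group was kept for 24 h in serum with 1 µM PD0325901, which blocks the kinase MEK that activates ERK. The PC group had the same medium, MEK inhibitor and time, plus CID755673 at a dose that no label states. RNA sequencing gave 2 libraries in each group, both groups carried the MEK inhibitor, and a group without it is not analysed here.

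In the blastocyst, the inner cell mass divides into Nanog-expressing epiblast and Gata6-expressing primitive endoderm, and FGF signalling through MEK and ERK favours the endoderm side. GATA6 acts early in that choice and SOX17 follows it, in primitive endoderm and again in the definitive endoderm that leaves the primitive streak. FOXA1 is a pioneer factor, a protein that binds its sites in closed chromatin, and works in gut, liver and lung endoderm. Embryonic stem cell cultures contain a low and variable amount of these transcripts.

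The table holds genes that the authors had already selected on these libraries, by a limit of 1.0 on the absolute log2 change and p-values up to 0.0498. Genes outside it are not analysed here. It holds 1593 of the 31432 genes that the authors' false discovery rates imply were tested, so a gene of any list is usually absent. Of its genes, 613 had higher and 980 lower values in PC, and 31.1% of them were called at an adjusted p under 0.05, 11.2% as higher and 19.8% as lower. Adjusted p-values are from limma after Benjamini-Hochberg correction, unless named as the authors' rate. The reads on the listed genes ranged from 433684 to 683777 per library, and the full depth is unknown. The labels do not say whether the 2 libraries of a group are separate cultures, and p-values therefore reflect only library-to-library spread, which may be technical. Of 10 embryonic stem cell markers the table held Utf1, Lin28a and Tdh, which had reads in every library and fell in PC.

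Gata6 and Foxa1 transcripts rose with CID755673, by 2.25-fold and 2.54-fold in the ratio of group means, and Sox17 had a 2.42-fold ratio that did not pass the test. All 3 had every PC library above every PD library. That order held for 99.7% of the table's genes in one direction or the other, so the selection nearly fixed it and it carries no weight for these genes. Against the 31.1% of the table that was called, 2 of the 3 factors were called, both as higher. Among the table's higher genes with a mean of 200 to 500 normalized reads, where Gata6 and Foxa1 lie, 45 of 71 were called. Among those with a mean of 20 to under 100, where Sox17 lies, 15 of 257 were called.

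**Figure D1:**
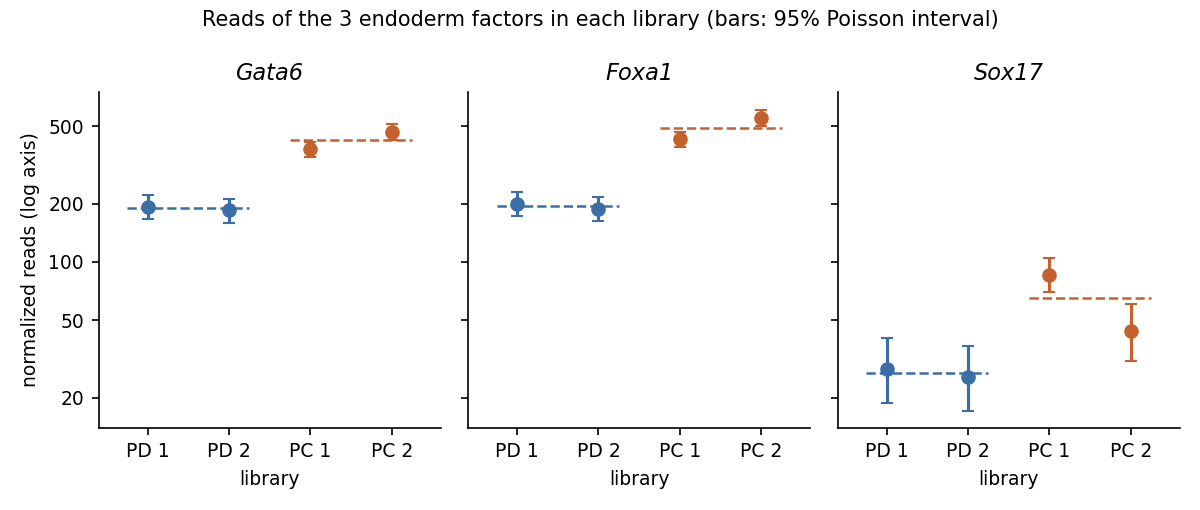
Normalized reads (log axis) of Gata6, Foxa1 and Sox17 in each library of the PD and PC groups, with 95% Poisson intervals as bars and group means as dashed lines. The PD libraries of each gene lie close together, while the PC libraries of Sox17 stand apart at 86.2 and 44.0.

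Gata6 (ENSMUSG00000005836), a zinc finger factor that commits inner cell mass cells to primitive endoderm, had 193.0 and 184.2 normalized reads in PD replicates 1 and 2, and 380.3 and 467.5 in PC replicates 1 and 2. Normalized reads are read counts divided by 1 size factor per library, and these values came from 199, 201, 459 and 393 reads in the same order. The 95% Poisson intervals of the PD libraries, 167.1 to 221.7 and 159.6 to 211.5, overlapped, and those of the PC libraries, 346.3 to 416.7 and 422.4 to 516.1, did not. Such intervals cover counting error only. The group levels were 188.6 ± 6.2 in PD and 423.9 ± 61.7 in PC (SD, n = 2). The log2 change, PC minus PD on the log2(normalized reads + 1) scale, was 1.16 (SE 0.15, adjusted p = 0.04 by limma). Ratios of a single PC to a single PD library ran from 1.97 to 2.54. In GENCODE M21, 93 exonic bases of Gata6 are shared with the opposite-strand transcript 1010001N08Rik. No source used here gives the strand setting of the counting, so reads from those bases cannot be told apart.

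Foxa1 (ENSMUSG00000035451) lies on the minus strand at chr12:57540628-57546916 of GRCm38 and shares no exonic base with another GENCODE M21 gene. FOXA proteins bind a forkhead motif. The RefSeq window around 1 of the annotated Foxa1 starts, 250 bases before to 50 bases after it, is shown because Foxa1 was called and was the only 1 of the 3 factors with an entry in the promoter table used. It spans chr12:57546062-57546361 of GRCm38.p6 on the minus strand, and the capitals mark the match to the forkhead motif.
Foxa1 promoter: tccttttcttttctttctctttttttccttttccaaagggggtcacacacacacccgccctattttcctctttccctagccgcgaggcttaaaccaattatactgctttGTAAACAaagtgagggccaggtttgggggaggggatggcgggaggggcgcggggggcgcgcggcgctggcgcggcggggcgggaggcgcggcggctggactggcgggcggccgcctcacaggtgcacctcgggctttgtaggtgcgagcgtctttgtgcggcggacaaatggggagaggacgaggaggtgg
The match, GTAAACA, is the reverse complement of TGTTTAC and begins at position -141 from the start. On both strands TGTTTAC occurred in 3.65% of 32817 RefSeq promoter windows of this length, a background given for scale only. The SOX motif ACAAAG had 4 matches in the Foxa1 window, at positions -145, -137, -8 and 11, the first pair overlapping the forkhead match at either end, and 18.72% of windows held at least 1. The GATA motif AGATAA, the second SOX motif ACAATG, the TATA box TATAAA and AGGTCA, the half-site that retinoic acid and other nuclear receptors bind, each searched on both strands, had no match in this window. They were found in 11.18%, 12.58%, 13.62% and 16.26% of windows. The Foxa1 window had 26 CG dinucleotides against a median of 7 over all windows. A match is a description of the letters and not of binding, which was not measured.

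Foxa1 had 198.8 and 187.9 normalized reads in PD replicates 1 and 2, from 205 reads in each library. It had 429.2 and 552.0 in PC replicates 1 and 2, from 518 and 464 reads. As for Gata6, PC replicate 2 was the higher of the PC libraries, and their 95% Poisson intervals, 393.0 to 467.8 and 502.9 to 604.6, did not overlap. The group levels were 193.3 ± 7.7 in PD and 490.6 ± 86.8 in PC (SD, n = 2), a log2 change of 1.33 (SE 0.16, adjusted p = 0.033 by limma). Ratios of a single PC to a single PD library ran from 2.16 to 2.94.

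Sox17 (ENSMUSG00000025902), an HMG-box factor that maintains endoderm identity, lies on the minus strand at chr1:4490931-4497354 of GRCm38. It had 28.1 and 25.7 normalized reads in PD replicates 1 and 2, and 86.2 and 44.0 in PC replicates 1 and 2, from 29, 28, 104 and 37 reads. Here PC replicate 1 was the higher library, the opposite of Gata6 and Foxa1. The 95% Poisson interval of PC replicate 2, 31.0 to 60.7, overlapped those of both PD libraries, 18.8 to 40.4 and 17.1 to 37.1, while that of PC replicate 1, 70.4 to 104.4, did not. The levels of 26.9 ± 1.7 in PD and 65.1 ± 29.8 in PC (SD, n = 2) gave a log2 change of 1.17 (SE 0.41), which missed the threshold (adjusted p = 0.74 by limma). The change was 0.69 without PC replicate 1 and 1.65 without PC replicate 2, so the size of the difference rested on which PC library was used. In the authors' deposited table the false discovery rate of Sox17 was 0.047, just under 0.05, as it was under 0.05 for 70.2% of the listed genes. In GENCODE M21, 804 exonic bases of Sox17 are shared with the opposite-strand transcript Gm37587, and reads from them cannot be told apart either.

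Gata6 and Foxa1 lost their calls when any 1 library was left out. Most genes called with all 4 libraries lost theirs too, so this loss is not particular to these factors. The log2 changes stayed between 1.01 and 1.31 for Gata6 and between 1.15 and 1.51 for Foxa1. In these fits 1 residual degree of freedom is left, and the single library of the reduced group takes its spread from the other group. The authors' deposited table gave false discovery rates of 1.8e-08 for Gata6 and 1.8e-10 for Foxa1. With 2 libraries a group, an exact two-sided permutation test of any 1 gene cannot go below p = 0.333, the value that each of the 3 genes gave.

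**Figure D2:**
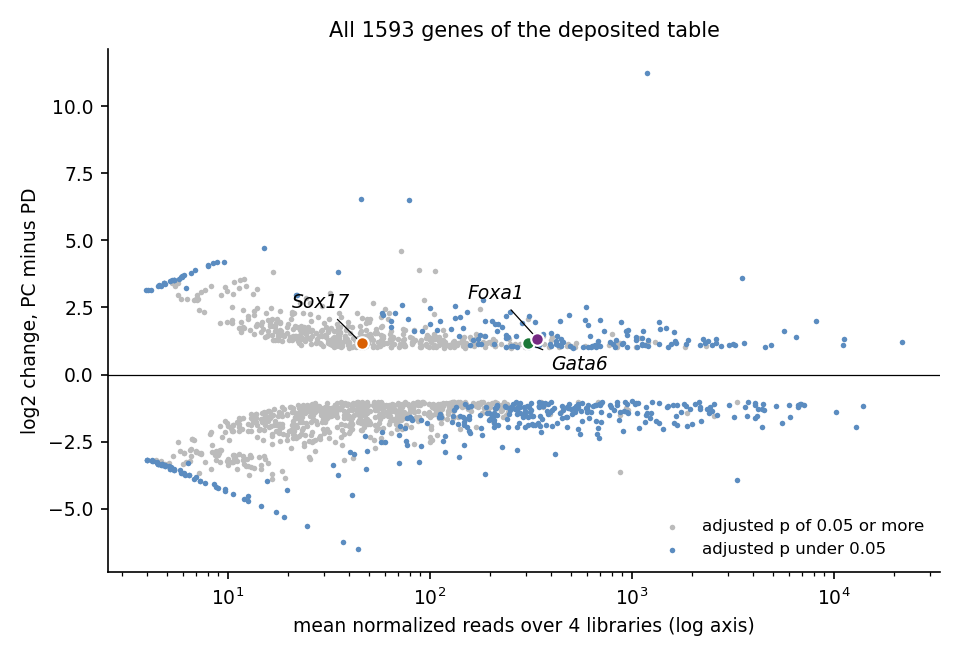
Log2 change, PC minus PD, of all 1593 listed genes against their mean normalized reads (log axis), with blue points for adjusted p under 0.05 and grey points for the rest. Gata6, Foxa1 and Sox17 lie near the lower edge of the higher genes, at 1.16, 1.33 and 1.17; no gene lies between -1 and 1 because of the authors' selection.

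Among the 613 higher genes of the table these were modest changes. Foxa1 ranked 354 by log2 change, Sox17 457 and Gata6 462, and the table's own limit of 1.0 lies just below the last pair. The spread between the PC libraries was wider for each factor than is usual at its level. On the log2 scale the PC libraries differed by 0.3 for Gata6, 0.36 for Foxa1 and 0.95 for Sox17. The median difference among listed genes within 2-fold of the same mean was 0.17, 0.17 and 0.39, and the factor exceeded 70.8%, 80.5% and 82.9% of those genes. The PD libraries differed by only 0.07, 0.08 and 0.13, below the medians of 0.17, 0.16 and 0.32.

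Foxa1 and Gata6 kept nearly the same proportion to each other in each library, a comparison that needs no size factor. Foxa1 had 1.03 and 1.02 reads for each Gata6 read in PD replicates 1 and 2, and 1.129 and 1.181 in PC replicates 1 and 2. Sox17 had 0.146 and 0.139 reads for each Gata6 read in PD, 0.227 in PC replicate 1 and 0.094 in PC replicate 2. The Sox17 proportion thus lay above the PD values in one PC library and below them in the other.

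Per kilobase of merged GENCODE M21 exons, Foxa1 had the highest level of the 3 in both groups. Its level was 58.1 ± 2.3 normalized reads per kilobase in PD and 147.4 ± 26.1 in PC (SD, n = 2). Gata6 followed with 29.0 ± 1.0 and 65.1 ± 9.5, and Sox17 with 5.6 ± 0.4 and 13.6 ± 6.2. Each neighbour in this order was separated by more than the SDs in each group. No source used here names the gene model behind the counts, so these lengths are those of one annotation.

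Of 15 regulators of primitive endoderm counted here, the 3 factors were in the table, so this list adds no gene to them. Of the 14 basement membrane genes that primitive endoderm makes in quantity, such as laminin and type IV collagen chains, 0 were in the table. With 1593 of 31432 tested genes in the table, such an absence carries no weight.

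Genes of later or neighbouring endoderm did not share one direction. Of 19 products of visceral endoderm, 4 were in the table, all with lower values in PC. Apob, the lipoprotein carrier, fell from 432.5 and 439.9 normalized reads in PD to 147.5 and 167.7 in PC, a log2 change of -1.47 (SE 0.13, adjusted p = 0.015 by limma). The Nodal antagonist gene Lefty1, which also marks anterior visceral endoderm, fell as well, with a log2 change of -1.41 (SE 0.09). The ligand gene Ihh had 43.8 ± 2.9 normalized reads in PD against 17.7 ± 8.6 in PC (SD, n = 2) and the Wnt antagonist gene Dkk1 had 62.4 ± 11.8 against 20.2 ± 16.9, and neither passed. Of 10 genes of parietal endoderm, Stra6, a retinol carrier receptor, was at 80.5 ± 5.5 in PD and 209.3 ± 40.5 in PC (adjusted p = 0.063 by limma). The thrombomodulin gene Thbd was at 29.0 ± 11.2 and 7.1 ± 1.7 (adjusted p = 0.29), and neither passed.

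Of 19 genes of definitive endoderm and the anterior streak, the table held the 3 factors, Fgf17 and Otx2. The growth factor gene Fgf17 fell from 610.9 and 530.6 normalized reads in PD to 211.3 and 223.6 in PC, a log2 change of -1.39 (SE 0.13, adjusted p = 0.016 by limma). The homeobox gene Otx2, which acts in epiblast as well as anterior endoderm, fell by 1.29 on the log2 scale (SE 0.09). Of 22 genes of gut, liver and pancreas, 4 were in the table, all with higher values. Cdx1, a caudal homeobox gene of intestine and posterior embryo, rose from 78.5 and 83.4 to 377.8 and 455.6, a log2 change of 2.34 (SE 0.16, adjusted p = 0.013 by limma). Nkx2-1, Sox9 and Onecut3 had few reads and did not pass. Nkx2-1 had 1.9 and 14.7 normalized reads in PD against 38.9 and 46.4 in PC, Sox9 had 27.2 and 17.4 against 53.0 and 51.2, and Onecut3 had 3.9 and 3.7 against 28.2 and 10.7. Regulators of endocrine pancreas and gut cells outside the list, chosen after their values were seen, were lower. Neurod1, which also acts in neurons, fell from 1054.1 and 1142.9 to 274.2 and 270.0 (adjusted p = 0.012 by limma). Rfx6 had 10.7 and 10.1 normalized reads in PD, from 11 reads in each library, and none in PC (adjusted p = 0.015 by limma). The authors' false discovery rate of Rfx6 was 0.094, which is not under 0.05. Nkx2-2, with a log2 change of -1.39, and Insm1, with -1.70, did not pass. Neurod1, Rfx6, Nkx2-2 and Insm1 were picked with their values known, so their shared direction carries no weight. Neither they nor the 4 listed genes give a direction for such regulators in general.

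Over all 6 endoderm lists, 15 of 89 genes were in the table, 8 with higher and 7 with lower values, and 3 rose and 4 fell. Without the 3 factors it was 12 of 86, 5 higher and 7 lower. The median log2 change was 1.16 with the 3 factors and -1.32 over the 12 genes without them, beside -1.17 over all 1593 listed genes. With 8 of the 15 genes higher, the median of 1.16 was the smallest of the higher values, that of Gata6. Leaving out the 3 factors, all higher, could only lower it, so the change of the median carries no weight. The table median was the same when the 94 genes at 0 reads in a group were set to their bound. Bounds that stay on the same side of the median cannot move it, so this carries no weight. The authors' deposited annotation gave a term naming endoderm to 6 listed genes counted here, among them Gata6 and Sox17 but not Foxa1. The other 4 had lower values: Dkk1, the ERK phosphatase gene Dusp6, the laminin gene Lamb3 and the RNA-binding protein gene Zfp36l1.

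**Figure D3:**
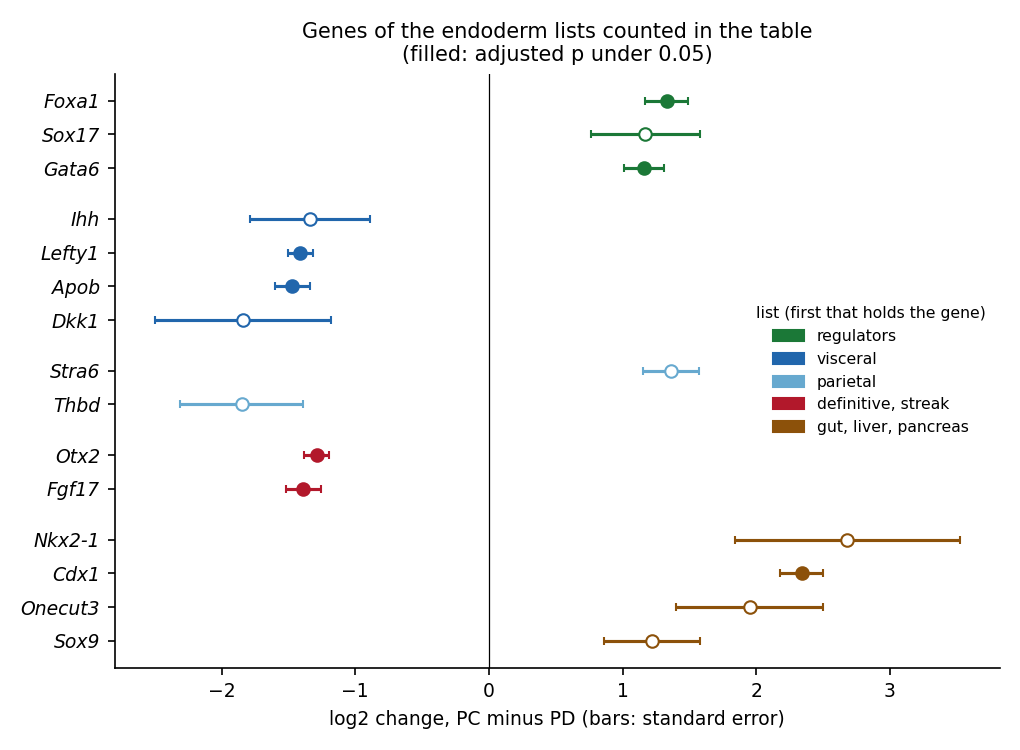
Log2 change, PC minus PD, of 15 genes of the endoderm lists that the table holds, coloured by list, with standard errors as bars and filled points for adjusted p under 0.05. The 3 factors and the 4 gut, liver and pancreas genes lie to the right of 0, and the 4 visceral products to the left.

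The factors' closest relatives were mostly outside the table. Of 3 FOXA genes and 3 SOX genes of group F, it held only Foxa1 and Sox17. Of 8 genes of the GATA family and its cofactors it held Gata6 and Gata3, a trophectoderm factor at 380.1 and 384.0 normalized reads in PD and 194.7 and 133.2 in PC (adjusted p = 0.089 by limma). Across all Gata, Fox and Sox genes, 15 were in the table, 9 with higher and 6 with lower values. Of the 9 Fox genes, Foxn4 rose from 1136.5 and 1076.0 to 2627.1 and 2803.9 normalized reads (adjusted p = 0.013 by limma), and the epiblast gene Foxd3 fell from 1100.6 and 1230.8 to 526.9 and 538.9 (adjusted p = 0.015 by limma). Foxb1 had 14.5 and 14.7 normalized reads in PD and none in either PC library, at least 4.82-fold lower against a floor of 3 reads per library (adjusted p = 0.014 by limma). Foxc1, Foxc2, Foxd2 and Foxf2 were higher in PC at group means of at most 55.7 normalized reads, and none of them passed, nor did Foxp1, which was at 4448.1 ± 60.2 in PD and 2207.3 ± 574.5 in PC (SD, n = 2). Of the 4 Sox genes 0 were called, beside 31.1% of the whole table: Sox9 and Sox17 had higher and Sox5 and Sox10 lower values.

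Of the signals that act on these factors in the embryo, listed members of the ERK and Nodal lists were lower and those of the retinoic acid list higher. Of 24 genes of FGF receptor and ERK signalling, 6 were in the table and all had lower values, of which Myc, Spry2 and Dusp6 fell. Of 18 Nodal pathway genes, Lefty2 and Lefty1, both induced by Nodal and opposing it, were in the table and fell. Genes outside these lists, chosen after their values were seen, went the other way. The ERK phosphatase gene Dusp9 rose from 13144.8 ± 571.0 to 30505.9 ± 1425.3 normalized reads (SD, n = 2; adjusted p = 0.013 by limma). The related Dusp8, at 106.3 ± 10.4 and 226.9 ± 40.8, and the Nodal antagonist gene Dand5, at 83.3 ± 4.0 and 181.9 ± 25.1, did not pass. Of 23 genes of the retinoic acid response, 7 were in the table and all had higher values, and 6 of them rose. Among them Stra8, Hoxa3, Cdx1 and Rec8 changed most, by 3.61, 2.54, 2.34 and 1.99 on the log2 scale. Retinoid genes outside the list, chosen after their values were seen, were lower. Stra6l, Rbp2 and Aldh1a3 had log2 changes of -2.33, -1.50 and -1.09, and none of them passed. Among all 1593 listed genes, 613 had higher and 980 lower values, and 11.2% were called as higher and 19.8% as lower. The signalling lists were chosen with earlier results of these data known, so their shared directions are a description only. Of 13 naive pluripotency genes, among them Nanog, which opposes Gata6 in the inner cell mass, 0 were in the table. Whether any of these changes is linked to Gata6, Foxa1 or Sox17 was not tested.

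Markers of extra-embryonic endoderm in the table were Gata6 and Sox17 alone, 2 of 10. Their summed level, most of it Gata6, was 209.9 to 221.1 normalized reads in PD and 466.4 to 511.5 in PC. Of 8 definitive endoderm markers only Sox17 was in the table. The listed markers of other cell types had lower values in PC, as had 980 of all 1593 listed genes. Mesoderm, trophoblast, fibroblasts and endothelium rest on 1 or 2 markers each, so no contrast with endoderm can be drawn. Other genes of these cell types were not counted. The marker sums for mesoderm were 88.2 to 113.6 in PD and 20.2 to 36.5 in PC (2 of 7, with Evx1 at 0 reads in both PC libraries). For trophoblast they were 380.1 to 384.0 and 133.2 to 194.7 (1 of 7). The sums were 89.2 to 113.6 and 38.9 to 48.8 for fibroblasts (1 of 7), and 3342.5 to 3526.6 and 1334.7 to 1498.7 for endothelium (2 of 6). Nearly all of the endothelium sum was Tek, at 3279.5 and 3446.0 in PD replicates 1 and 2. Kdr is counted in both the mesoderm and the endothelium sum. Of 6 neural progenitor markers 0 were in the table. The 3 listed embryonic stem cell markers summed to 34231.0 to 35052.0 in PD and 13885.0 to 14401.5 in PC. The part of cell composition in the change of the 3 factors was not tested, and in bulk RNA more cells with a transcript and more of it per cell cannot be told apart.

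The genes whose profile over the 4 libraries was nearest to each factor were found among the 1256 listed genes with a mean of at least 20 normalized reads. Likeness was the root mean square difference of log2(normalized reads + 1), centred on each gene's own mean. For Gata6 the nearest were Tcam1 at 0.031, Tmem205 at 0.038 and F630040K05Rik at 0.041, and Foxa1 stood at rank 37 with 0.089. For Foxa1 the nearest were the sarcospan gene Sspn at 0.056, the mitochondrial carrier gene Ucp2 at 0.057 and Wnt11 at 0.06, and Gata6 stood at rank 13. Sox17 stood at rank 390 from Gata6, with a difference of 0.443, and at rank 418 from Foxa1, with 0.472, and its own nearest genes were Gm45853 at 0.086, Gm6185 at 0.117 and Olfr91 at 0.123. With 4 libraries of 2 groups, such likeness describes these libraries only.

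**Figure D4:**
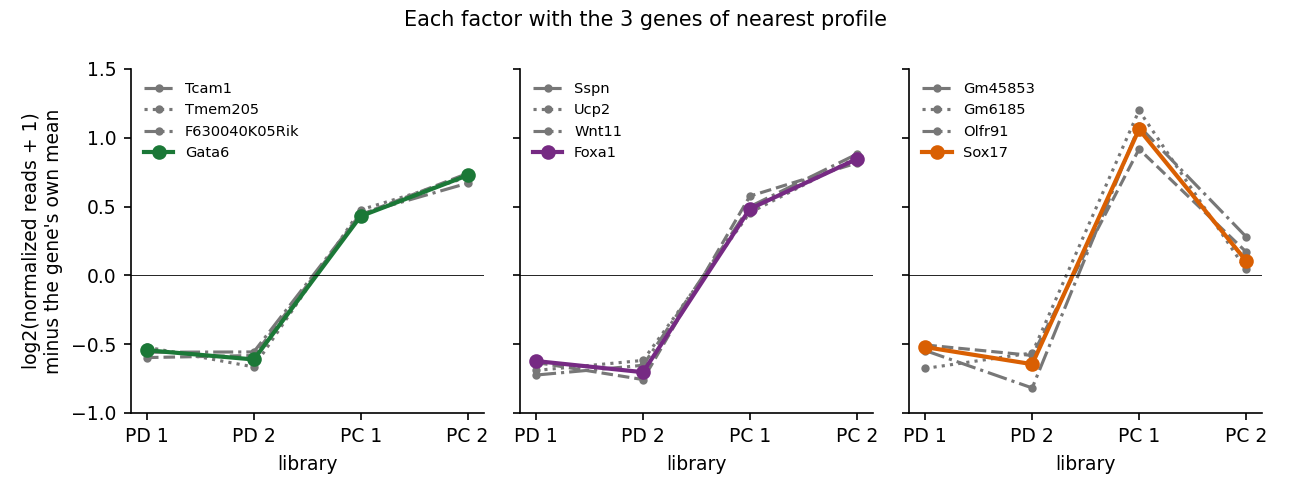
Log2(normalized reads + 1) minus the gene's own mean in the 4 libraries, for each factor (coloured) and its 3 nearest genes (grey); lines link values of 1 gene and carry no order. Gata6 and Foxa1 are highest in PC replicate 2, and Sox17 and its neighbours in PC replicate 1.

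The direction of all 3 factors was the same in every setting tried, which the authors' selection had nearly fixed. The calls were not the same. Gata6 and Foxa1 were called with a pseudocount of 10, with voom on the recovered reads and with a higher filter on low values. They were not called with a pseudocount of 0.1 (adjusted p = 0.062 and 0.055 by limma) or with a constant prior for the spread (adjusted p = 0.21 and 0.2). The constant prior left 1 call among all listed genes.

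**Figure D5:**
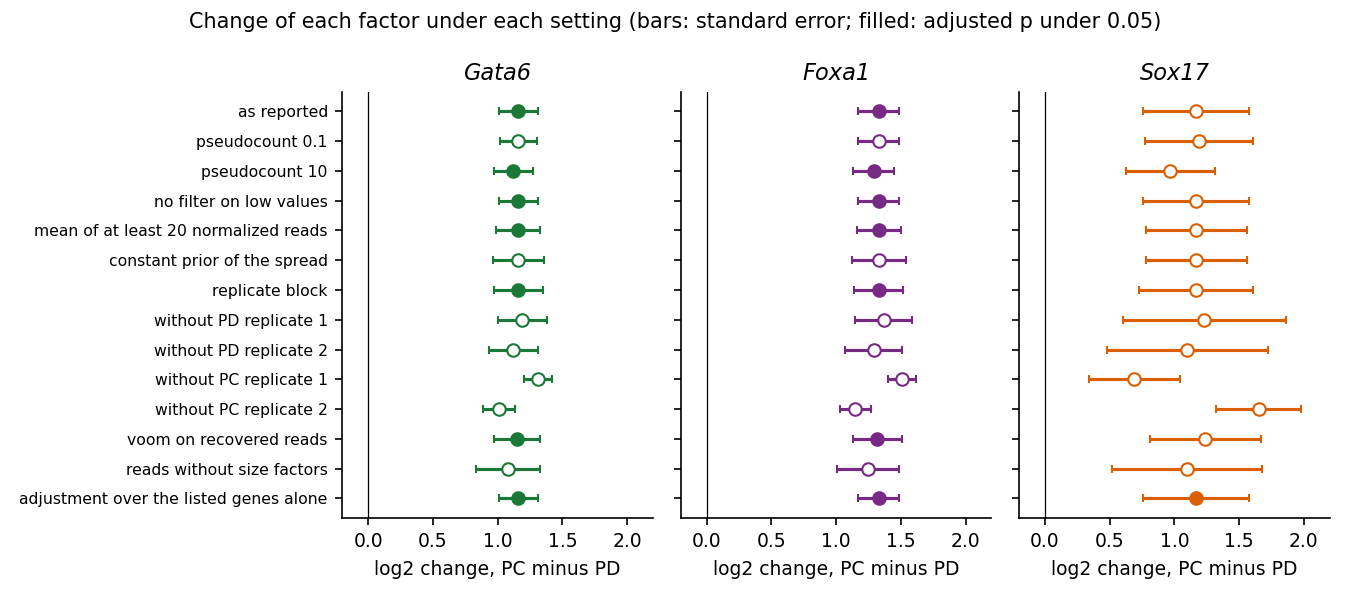
Log2 change, PC minus PD, of Gata6, Foxa1 and Sox17 under each setting, with standard errors as bars and filled points for adjusted p under 0.05. Estimates for Gata6 stay between 1.01 and 1.31 and those for Foxa1 between 1.15 and 1.51, while Sox17 ranges from 0.69 to 1.65 as a PC library is left out.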

How the data were processed

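The authors deposited 1 table of 1593 genes with log2 values per library, log2 group means, a log2 fold change, p-values and false discovery rates, per the file headers. Undoing the log2 and subtracting 1 gave whole multiples of 1 step per library for 100.0% of values (tolerance 0.001 reads), so the deposited log2 values are log2(reads / size factor + 1), with size factors of 1.0313, 1.0911, 1.207 and 0.8406 for PD replicates 1 and 2 and PC replicates 1 and 2. Bowtie 0.12.2 and the build mm9 appear in the submitters' processing notes without a role. How reads were counted, and which test the authors ran, is not stated in the sources used here. Samples were grouped by their titles.

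Differences were tested with limma 3.58.1 (R 4.3.3) on log2(normalized reads + 1), using a trended prior and 2 residual degrees of freedom, for genes with a mean of at least 1 normalized read. Benjamini-Hochberg adjustment ran over the 31432 genes that the authors' rates imply were tested, with unlisted genes taken to have larger p-values. This leans towards fewer calls, while a spread estimated from genes selected for a small p leans towards more.

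The factors and gene lists were chosen with earlier results of these data known. Named genes are the 3 factors, every listed gene of the endoderm, GATA, FOXA, SOX group F and naive lists, every listed Gata, Fox or Sox gene, up to 4 called genes of each signalling list with the largest change, and 3 nearest profiles per factor. 1 gene of the lists is not reported here and was left out of their counts. Dusp8, Dusp9, Dand5, Neurod1, Rfx6, Nkx2-2, Insm1, Stra6l, Rbp2 and Aldh1a3 were added after their values were seen. Dusp6, Lamb3 and Zfp36l1 in the annotation count, the markers of other cell types and the ERK genes named for their call were also given. Alternatives covered the pseudocount, filter, prior, replicate block, left-out libraries, voom, size factors, adjustment and the authors' rates.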

Additional observations from a re-analysis of the deposited data

How the results depend on the processing

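Gata6, Foxa1 and Sox17 kept a higher value in PC under each of the 14 alternatives. The authors' selection on these libraries nearly fixed that direction, so it carries no weight. The number of called genes was 495. It was 1 with a constant prior, 64 without size factors, 1119 by the authors' false discovery rate and 1536 when adjusted over the listed genes alone, and leaving out a library gave 33 to 61. With pseudocounts of 0.1 and 10, a mean of at least 20, and voom, it was 417, 604, 600 and 661. Gata6 lost its call with a pseudocount of 0.1 (log2 change 1.16), a constant prior (1.16), no size factors (1.08) and each library left out (1.01 to 1.31). Foxa1 lost its call in the same settings, at 1.33, 1.33, 1.25 and 1.15 to 1.51. Sox17 passed only by the authors' rate and when adjusted over the listed genes alone, at 1.17 in both; the latter passes nearly every listed gene. The cause of these differences was not tested. With the replicate block 1176 genes were called, Gata6 and Foxa1 among them at log2 changes of 1.16 and 1.33, with 1 residual degree of freedom. The deviations of same-numbered libraries were uncorrelated across 597 genes with a mean of at least 100 (r = -0.003), which gives no sign of pairing. The labels do not say whether the numbers mark a shared culture or day, and a correlation over selected genes cannot settle it. Sox17 had 28 to 104 reads per library, and the part of depth in its missed call was not tested.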
